A study of Saccharomyces cerevisiae with 56 samples.

Results

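Segments of the nuclear genome that lay next to a tRNA gene and were copied into a DNA break were examined. *Break-Ins* sequences the junction left after repair of a break made by the HO endonuclease at *MAT***a**, so that DNA captured there can be traced to its donor locus. Of the 1436 donors that were the only donor of their insertion, 783 met the following limits. They lay on chromosomes I to XVI, more than 20 kb from a chromosome end and more than 400 bp from a Ty reading frame. They also lay outside rDNA and the mating-type cassettes. Solo LTRs of Ty elements are not in the annotation used, so donors in them were not left out as such. These 783 donors are called eligible here. Within 1 kb of an annotated tRNA gene lay 78 of them, which is 9.96% of the eligible donors (exact 95% interval 7.95% to 12.3%). The other 705 eligible donors served for comparison. Each donor was assigned to its nearest tRNA gene in the R64 annotation, and distances were measured between the closest ends of donor and gene.

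All strains derived from JKM139, which is *MAT***a**, carries *HO* under a galactose-inducible promoter, and has *ADE1* in place of both silent cassettes, so that the break has no homologous template. Colonies that survived on galactose plates were pooled for each library. The 78 donors came from 7 genotypes. They are *rad27*Δ (14 libraries), *rtt105*Δ (8), *rtt105*Δ *rad27*Δ (3), *rad27*Δ *rfa1*-t33 (2), *rfa1*-t33 (3), *sgs1*Δ *exo1*Δ (4) and *sgs1*Δ (2). The labels of the *rad27*Δ libraries give 30C for 8, 23C for 3 and 37C for 3, and the pooled list does not tell them apart. Every library of the other genotypes is labelled 30C, so comparisons with *rad27*Δ also differ in temperature. No eligible donor was near a tRNA gene in *rtt105*Δ *tel1*Δ (0 of 7, which allows a share of up to 42.9%) or *rtt105*Δ *rad1*Δ (0 of 2, too few to set a limit). The *mre11*-H125N, *exo1*Δ, *rev3*Δ, *rad30*Δ, *pol32*Δ, *mre11*Δ and *lig4*Δ lists held no eligible donor at all. Every list pools the libraries of its genotype and names no library, so the spread between cultures cannot be given. The tests of shares take each donor as a unit, and both intervals and p-values cover counting error only.

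tRNA genes are short genes transcribed by RNA polymerase III from promoter elements inside the gene. The bound transcription factors are known to pause replication forks in yeast, and the region upstream of the genes is the preferred integration site of the Ty1 and Ty3 retrotransposons. Rad27 is the flap endonuclease that trims the 5′ ends of Okazaki fragments during lagging-strand synthesis. Rtt105 is a chaperone of RPA, the single-stranded DNA-binding complex whose largest subunit is altered in *rfa1*-t33, and the helicase Sgs1 and the nuclease Exo1 act in long-range resection of DNA ends.

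Donors near tRNA genes were found in both kinds of mutant, with shares of the eligible donors between 7.08% and 18.2% in the 6 genotypes with at least 20 eligible donors. In *rad27*Δ, 20 of 224 eligible donors (8.93%, 5.54% to 13.5%) were near a tRNA gene. In *rtt105*Δ they were 29 of 223 (13.004%, 8.89% to 18.1%), and in *rtt105*Δ *rad27*Δ 15 of 212 (7.08%, 4.01% to 11.4%). The smaller lists gave 4 of 54 (7.41%, 2.06% to 17.9%) in *rad27*Δ *rfa1*-t33, 4 of 22 (18.2%, 5.19% to 40.3%) in *rfa1*-t33, 5 of 30 (16.7%, 5.64% to 34.7%) in *sgs1*Δ *exo1*Δ and 1 of 9 (11.1%, 0.281% to 48.2%) in *sgs1*Δ. All these intervals overlap. For scale, a segment of 77 bp, the median length of the eligible donors, has 4.79% of its possible eligible positions within 1 kb of a tRNA gene. This share of sequence is a description, and no test was made against it.

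**Figure D1:**
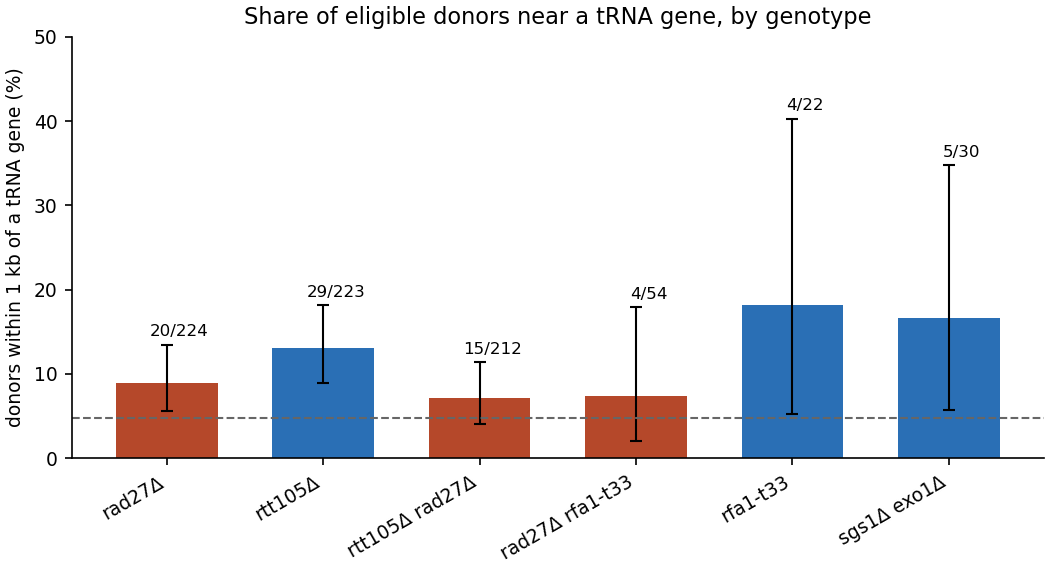
Share of eligible donors within 1 kb of a tRNA gene (y axis, percent) in the 6 genotypes with at least 20 eligible donors (x axis). Error bars are exact 95% intervals, red bars are strains without Rad27, blue bars strains with Rad27, the numbers give near over eligible donors, and the dashed line is the 4.79% of eligible positions near a tRNA gene. The red bars stand between 7.08% and 8.93% and the blue bars between 13.004% and 18.2%, with overlapping intervals.

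The lists from strains without Rad27 (*rad27*Δ, *rtt105*Δ *rad27*Δ and *rad27*Δ *rfa1*-t33) were compared with all other lists. They held 39 of 490 (7.96%, 5.72% to 10.7%) and 39 of 293 (13.3%, 9.64% to 17.7%) donors near a tRNA gene. The difference of -5.35 percentage points (95% interval -10.2 to -0.973) did not pass after Benjamini-Hochberg adjustment over the 14 tests made (Fisher's exact test, two-sided, p = 0.0189, adjusted p = 0.0881). Neither did *rad27*Δ against *rtt105*Δ (-4.08 points, -9.99 to 1.78, exact test, adjusted p = 0.353), *rtt105*Δ *rad27*Δ against *rtt105*Δ (-5.93 points, -11.7 to -0.217, exact test, adjusted p = 0.194) or *rtt105*Δ *rad27*Δ against *rad27*Δ (-1.85 points, -7.09 to 3.41, exact test, adjusted p = 0.621). The threshold of distance bore on this comparison. At 2 kb, 60 of 490 against 66 of 293 donors were counted, and the difference of -10.3 points passed (Fisher's exact test, adjusted p = 0.000903). At 0.5 kb it was -3.77 points (25 of 490 against 26 of 293, exact test, adjusted p = 0.220), and at 0.2 kb -1.24 points (14 of 490 against 12 of 293, exact test, adjusted p = 0.866). It also moved with the loci counted, in 2 alternatives chosen after the data were seen. Without chromosome III it was -2.65 points (37 of 473 against 29 of 277, exact test, adjusted p = 0.646), and without the donors at *SUP6* -6.49 points (33 of 484 against 39 of 293, exact test, adjusted p = 0.0149). The *SUP6* donors all came from strains without Rad27, so leaving them out could only widen this difference. The difference between *rad27*Δ and *rtt105*Δ was -1.61 points without chromosome III, -0.184 points without the largest *rad27*Δ sequencing run (5 of 39 *rad27*Δ donors left) and -8.72 points without the larger *rtt105*Δ run (3 of 17 *rtt105*Δ donors left).

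Per colony the order was another one. *rtt105*Δ *rad27*Δ gave 13.4 near-tRNA donors per 100000 colonies (exact Poisson interval 7.51 to 22.1), *rtt105*Δ 7.75 (5.19 to 11.1) and *rad27*Δ 2.44 (1.49 to 3.77). *rad27*Δ *rfa1*-t33 gave 26.7 (7.28 to 68.4), *rfa1*-t33 7.52 (2.05 to 19.3), *sgs1*Δ *exo1*Δ 9.09 (2.95 to 21.2) and *sgs1*Δ 0.943 (0.0239 to 5.25). *rad27*Δ fell below *rtt105*Δ (Fisher's exact test, adjusted p = 0.000146 over 4 tests) and below *rtt105*Δ *rad27*Δ (exact test, adjusted p = 1.87e-05). It also did so when the 37C libraries were left out of its colonies (exact tests, adjusted p = 0.00938 and 0.000477). These tests take each colony as a unit, so their p-values leave out the spread between cultures. The repeat kept all *rad27*Δ donors and the *rad27*Δ libraries with the lowest temperature label, so temperature still differed. The *rad27*Δ rate of 2.44 counts the 820032 colonies of all 14 libraries. The paper lists 600672 colonies for *rad27*Δ, which is the number without the 37C libraries. On that number the difference from *rtt105*Δ was -4.42 per 100000 colonies instead of -5.31. The paper also normalized its colonies by HO cutting, which was not done here. A rate per colony counts how often any DNA was captured as well as where it came from, whereas the share of eligible donors does not.

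The donors were spread over many tRNA genes. They lay nearest to 59 of the 275 nuclear tRNA genes of the annotation, of which 274 had eligible sequence within 1 kb. A single donor was nearest to 50 of these genes, and 9 genes accounted for the remaining 28 donors. No pair of donors of a genotype and strand matched at both ends within 5 bp. Redundant reads had been collapsed by the authors, so a segment captured more than once may be listed once. Strains without Rad27 hit 33 tRNA genes and the other strains 31, and 5 genes were hit in both. Unrelated sets of this size among 274 genes would also share few members, so the overlap shows no difference in the genes used. Only 11 of the 59 genes carry a gene name in the annotation used, and the others are given by their locus tag, whose last letter, W or C, gives the strand.

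*SUP6* and *SUF2* were each nearest to 6 donors, more than any other tRNA gene. *SUP6* encodes a tyrosine tRNA (chromosome VI, 210619 to 210707, minus strand), and its 6 donors all came from strains without Rad27. *rtt105*Δ *rad27*Δ gave 4 of them, at 210328 to 210377, 210366 to 210415, 210372 to 210437 and 210380 to 210454. *rad27*Δ gave 1 at 210345 to 210406, and *rad27*Δ *rfa1*-t33 gave 1 at 210346 to 210460. The 39 donors from strains with Rad27 included none at this gene. Because *SUP6* was singled out by its number of donors, this contrast is a description.

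The *SUP6* donors fell into a window of 133 bp. All lay downstream of the gene, 158 to 241 bp past its 3′ end, and measured 50 to 115 bp. The most densely covered bases, 33 in all, lay under 5 of the 6 donors. The 5 donors from *rad27*Δ and *rtt105*Δ *rad27*Δ were listed on the strand of *SUP6*, and the *rad27*Δ *rfa1*-t33 donor was listed on the opposite strand. The window is intergenic. It ends 259 bp before *CDC14*, which encodes the phosphatase of mitotic exit, on the one side, and *SUP6* itself lies between the window and *PTR3*, a component of the amino acid sensor of the plasma membrane.

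At *SUF2*, a proline tRNA gene (chromosome III, 123577 to 123648, minus strand), the donors came mostly from strains with Rad27 and were spread over 1353 bp. *rtt105*Δ gave 4, at 123374 to 123577, 124065 to 124165, 124135 to 124506 and 124610 to 124726. *rfa1*-t33 gave 1 at 123964 to 124179, and *rtt105*Δ *rad27*Δ gave 1 at 123455 to 123565. They measured 101 to 372 bp. Upstream of the gene lay 4 of them and downstream 2, one of which shared 1 base with the gene, and no base lay under more than 3 donors. 4 were listed on the strand of *SUF2* and 2 on the opposite strand. None touched a reading frame, as all lay between *YCR006C* and *DFP3*.

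**Figure D2:**
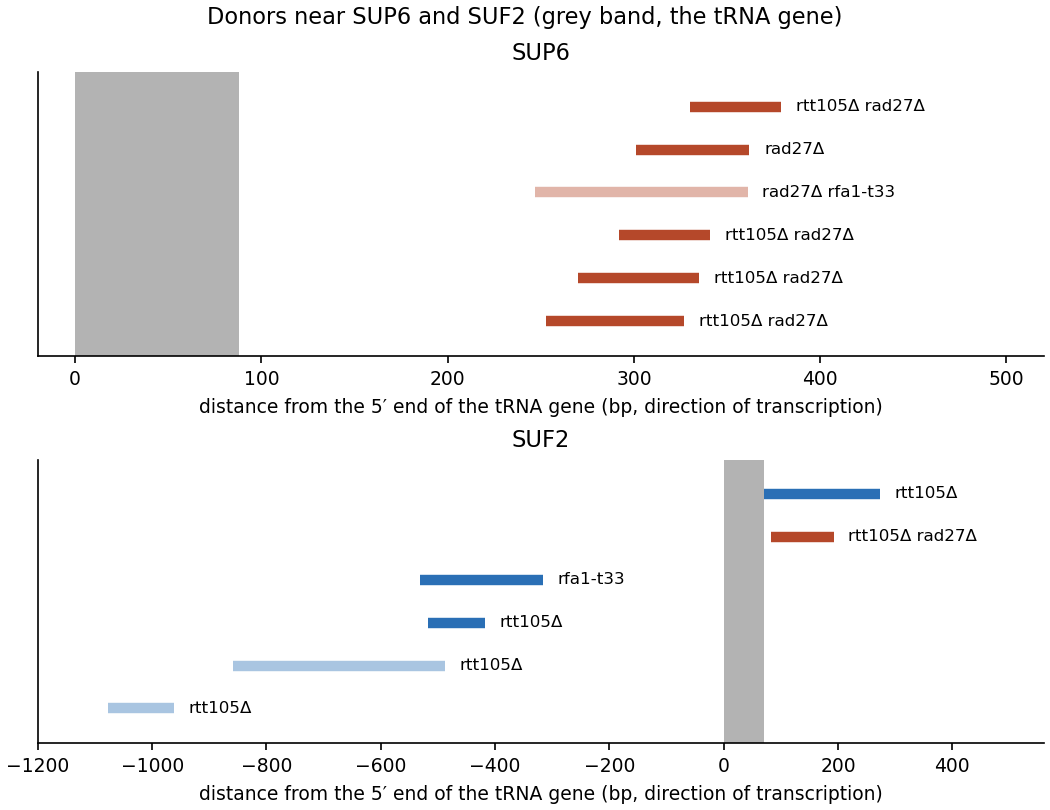
Position of the donors near *SUP6* and *SUF2* (x axis, bp from the 5′ end of the tRNA gene in its direction of transcription), 1 line per donor with its genotype. The grey band is the tRNA gene, red lines are strains without Rad27 and blue lines strains with Rad27, and pale lines are donors on the opposite strand. The 6 *SUP6* donors are all red and overlap downstream of the gene, whereas 5 of the 6 *SUF2* donors are blue and lie on both sides.

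The tRNA gene *YNCC0001C* (chromosome III, 82462 to 82533) had 4 donors from 4 genotypes. The *rtt105*Δ donor lay 160 bp upstream (82694 to 82825), the *sgs1*Δ *exo1*Δ donor 607 bp upstream (83141 to 83536) and the *rad27*Δ donor 789 bp upstream (83323 to 83378), within the *sgs1*Δ *exo1*Δ donor but on the other strand. The *sgs1*Δ donor lay 762 bp downstream (81623 to 81699), in *KCC4*, a protein kinase gene of the bud neck. Their lengths were 132, 396, 56 and 77 bp.

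A pair of donors was found at each of 6 further genes. At *YNCN0011W* (chromosome XIV, 568115 to 568217), an *rtt105*Δ donor (567288 to 567411) and a *rad27*Δ donor (567318 to 567423) shared 94 bp on opposite strands, 703 and 691 bp upstream. At *YNCE0022C* (chromosome V, 435752 to 435824), a *rad27*Δ *rfa1*-t33 donor (436416 to 436531) and an *rtt105*Δ donor (436486 to 436535) shared 46 bp, again on opposite strands. At the other 4 genes the 2 donors did not overlap. They are *YNCE0004C* (chromosome V, *rtt105*Δ and *rfa1*-t33), *YNCM0023C* (chromosome XIII, *rtt105*Δ and *rad27*Δ), *YNCK0007W* (chromosome XI, both from *rad27*Δ) and the arginine tRNA gene *HSX1* (chromosome X, both from *rtt105*Δ).

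The tRNA gene itself was touched by 9 of the 78 donors, 5 from *rtt105*Δ, 2 from *rad27*Δ, 1 from *rtt105*Δ *rad27*Δ and 1 from *rad27*Δ *rfa1*-t33. The overlap was 41 to 57 bp at *YNCM0023C* (57 bp), *YNCD0008W* (55 bp), *YNCL0044W* (54 bp), the glycine tRNA gene *SUF6* (53 bp) and *HSX1* (41 bp). It was smaller at *YNCO0011W* (17 bp), *YNCK0007W* (8 bp), the glycine tRNA gene *SUF20* (2 bp) and *SUF2* (1 bp). Only the donors at *YNCL0044W* in *rad27*Δ (797161 to 797231) and at *SUF6* in *rad27*Δ *rfa1*-t33 (96260 to 96354) had their midpoint inside the gene, and both were listed on the strand opposite to it. No donor covered a whole tRNA gene.

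Upstream and downstream donors were about equally frequent. The eligible sequence on each side was not measured, so only counts are compared. Judged by the midpoint, 39 donors lay upstream of the tRNA gene, 37 downstream and 2 within it, so that 51.3% of those outside were upstream (exact interval 39.6% to 63.0%). Upstream donors were 9 of 19 in *rad27*Δ (47.4%, 24.4% to 71.1%), 18 of 29 in *rtt105*Δ (62.1%, 42.3% to 79.3%) and 5 of 15 in *rtt105*Δ *rad27*Δ (33.3%, 11.8% to 61.6%). All 4 *rfa1*-t33 donors lay upstream, 315 to 484 bp away, and 4 of 5 *sgs1*Δ *exo1*Δ donors lay downstream. The difference between *rad27*Δ and *rtt105*Δ was -14.7 points (-39.9 to 12.9, Fisher's exact test, adjusted p = 0.591). That between all strains without and with Rad27 was -15.7 points (16 of 37 against 23 of 39, -35.9 to 6.47, exact test, adjusted p = 0.439). These intervals are wide and leave room for differences in either direction.

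The strand was mixed as well. 43 of 78 donors (55.1%, 43.4% to 66.4%) were listed on the strand of the tRNA gene and 35 on the other. The same strand was listed for 9 of 20 donors in *rad27*Δ, 15 of 29 in *rtt105*Δ, 10 of 15 in *rtt105*Δ *rad27*Δ, 1 of 4 in *rad27*Δ *rfa1*-t33, 4 of 5 in *sgs1*Δ *exo1*Δ, 0 of 1 in *sgs1*Δ and 4 of 4 in *rfa1*-t33. *rad27*Δ and *rtt105*Δ differed by -6.72 points (-32.3 to 20.3, Fisher's exact test, adjusted p = 0.833), and strains without and with Rad27 by -7.69 points (20 of 39 against 23 of 39, -28.2 to 13.8, exact test, adjusted p = 0.757).

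**Figure D3:**
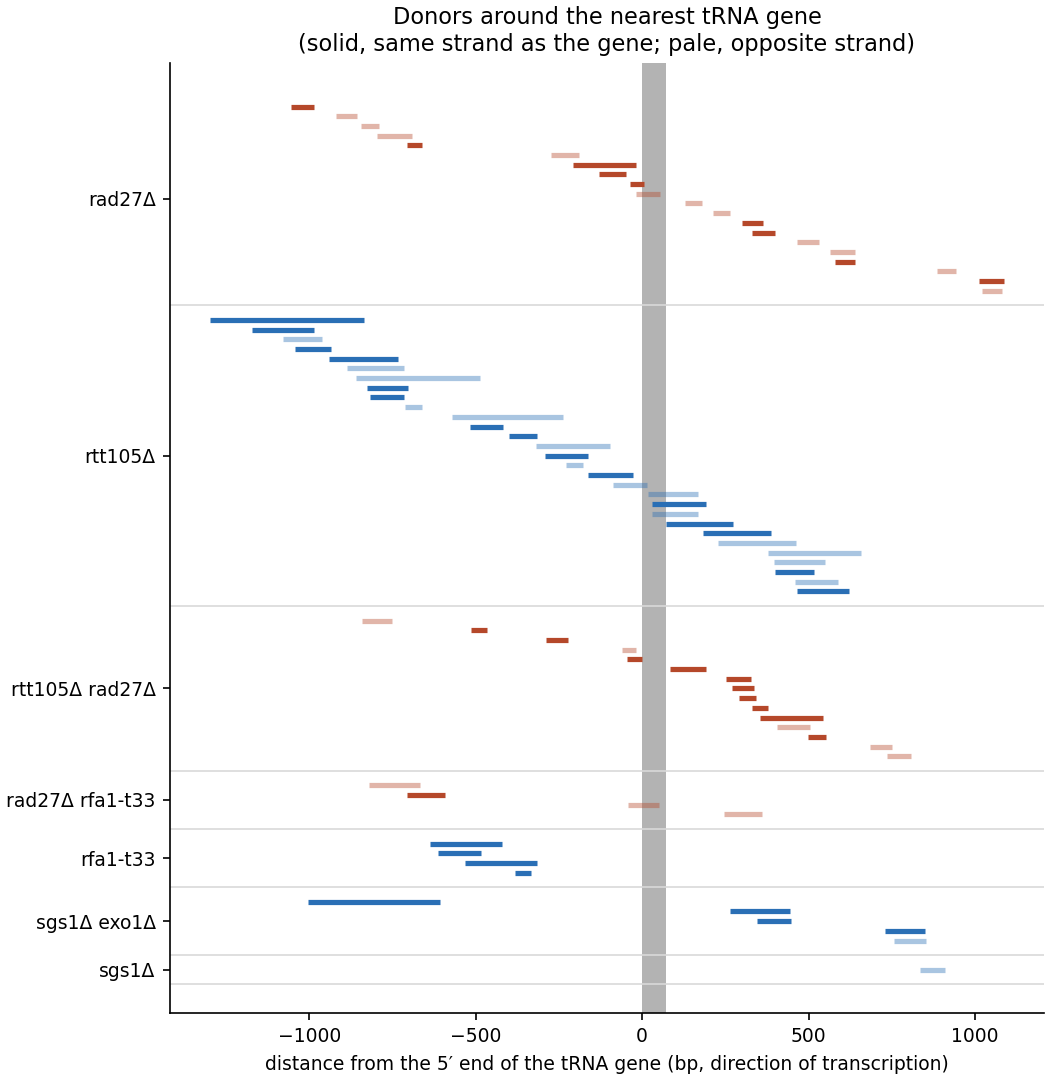
The 78 donors drawn to scale around their nearest tRNA gene (x axis, bp from the 5′ end of the gene in its direction of transcription), 1 line per donor, grouped by genotype. The grey band has the median length of the tRNA genes, red marks strains without Rad27 and blue strains with Rad27, and pale lines are donors on the opposite strand. Both sides of the gene carry donors in the 3 largest groups, the 4 *rfa1*-t33 donors are all upstream, and the red lines are mostly shorter than the blue ones.

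The median distance to the tRNA gene was 320.5 bp, and 51 of 78 donors lay within 500 bp. By distance, 26 donors lay within 200 bp, 25 between 200 and 500 bp and 27 beyond. The median was 442.5 bp in *rad27*Δ, 314 bp in *rtt105*Δ and 241 bp in *rtt105*Δ *rad27*Δ, the last of which includes the 4 *SUP6* donors. Donors within 500 bp were 25 of 39 in strains without Rad27 and 26 of 39 in the others (difference -2.56 points, -22.7 to 17.9, Fisher's exact test, adjusted p = 1.0). In *rtt105*Δ none of the 11 downstream donors was farther than 500 bp, while 9 of 18 upstream donors were. This contrast was not tested and holds only up to the 1 kb limit. Past it, *rtt105*Δ donors lay on both sides, among them downstream at 1048 and 1091 bp and upstream at 1010 and 1020 bp. Of 20 *rad27*Δ donors 9 were farther than 500 bp, on both sides. The members just inside the limit lay at 961, 983 and 984 bp and the nearest outside it at 1007, 1009 and 1010 bp.

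Length separated the genotypes. Near tRNA genes, the *rad27*Δ donors measured 44 to 192 bp with a median of 65.5 bp, the *rtt105*Δ *rad27*Δ donors 43 to 190 bp with a median of 68 bp, and the *rtt105*Δ donors 50 to 463 bp with a median of 151 bp. Donors of at least 100 bp were 2 of 20 in *rad27*Δ (10.0%, 1.23% to 31.7%) and 26 of 29 in *rtt105*Δ (89.7%, 72.6% to 97.8%), a difference of -79.7 points (-89.5 to -53.9, Fisher's exact test, adjusted p = 1.26e-07). Over all strains they were 8 of 39 without Rad27 (20.5%, 9.30% to 36.5%) and 33 of 39 with Rad27 (84.6%, 69.5% to 94.1%), a difference of -64.1 points (-76.8 to -43.3, exact test, adjusted p = 1.26e-07). Without the larger *rtt105*Δ sequencing run, which left 3 *rtt105*Δ donors, the difference between *rad27*Δ and *rtt105*Δ was -56.7 points (exact test, adjusted p = 0.311). *rad27*Δ *rfa1*-t33 stood apart from the other strains without Rad27, with donors of 95, 115, 116 and 155 bp.

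Away from tRNA genes, the other eligible donors had a median of 61 bp in *rad27*Δ, 146 bp in *rtt105*Δ and 66 bp in *rtt105*Δ *rad27*Δ. In the smaller lists the medians near tRNA genes and elsewhere were 173 and 132 bp in *rfa1*-t33, 121 and 145 bp in *sgs1*Δ *exo1*Δ, and 115.5 and 103 bp in *rad27*Δ *rfa1*-t33, and the single *sgs1*Δ donor of 77 bp stood against a median of 291 bp. In the smaller *rtt105*Δ sequencing run they were 118 bp (3 donors) and 235 bp (14 donors). The share of donors of at least 100 bp near tRNA genes was compared with that elsewhere in 3 genotypes, and in none did the difference pass. It was 7.06 points in *rad27*Δ (2 of 20 against 6 of 204, -0.884 to 27.2, Fisher's exact test, adjusted p = 0.353). It was 15.4 points in *rtt105*Δ (26 of 29 against 144 of 194, -1.58 to 24.9, exact test, adjusted p = 0.278) and 6.29 points in *rtt105*Δ *rad27*Δ (3 of 15 against 27 of 197, -7.78 to 31.8, exact test, adjusted p = 0.621). In each of the 3 the sign turned under an alternative. Untested, the shares near and elsewhere were 75.0% and 83.3% in *rfa1*-t33, 80.0% and 92.0% in *sgs1*Δ *exo1*Δ, and 75.0% and 58.0% in *rad27*Δ *rfa1*-t33.

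**Figure D4:**
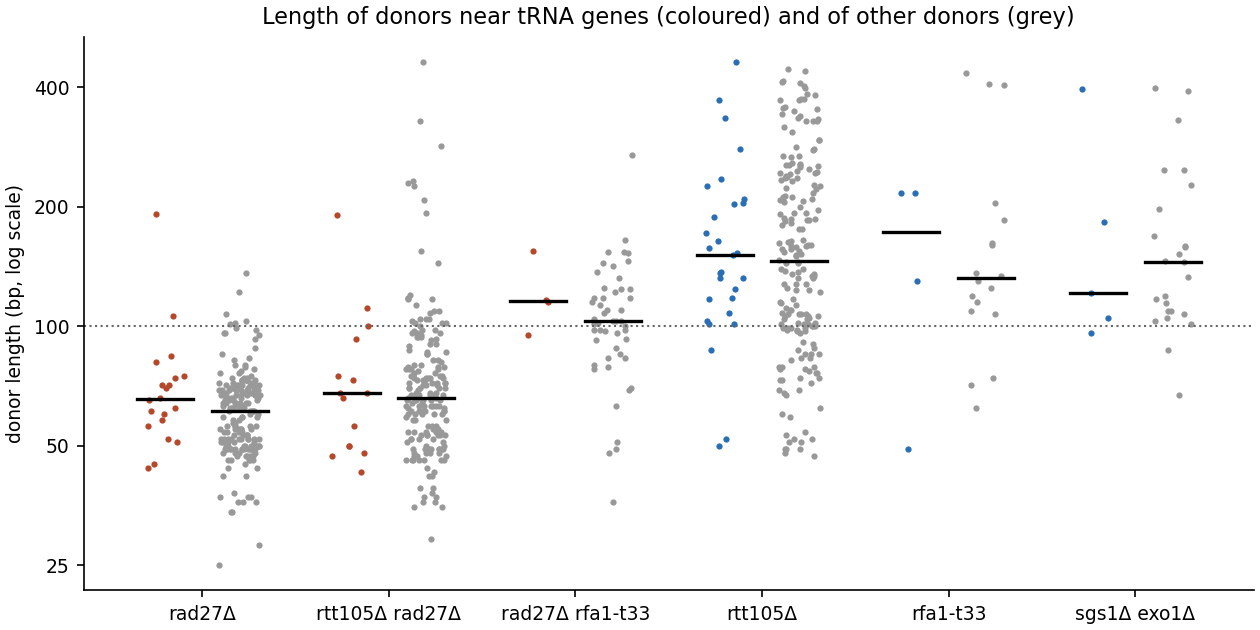
Length of eligible donors (y axis, bp, log scale) in 6 genotypes, near tRNA genes (coloured points) and elsewhere (grey points), with medians as black bars and a dotted line at 100 bp. Red marks strains without Rad27 and blue strains with Rad27. The median near tRNA genes is 65.5 bp in *rad27*Δ and 151 bp in *rtt105*Δ, close to the grey medians of 61 and 146 bp.

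Sequencing runs, read from the names of the reads, moved with the genotype. *rad27*Δ donors came from 3 runs with 15 of 185, 3 of 31 and 2 of 8 eligible donors near a tRNA gene, and *rtt105*Δ donors from 2 runs with 26 of 206 and 3 of 17. Only 1 run held both genotypes, with 2 of 8 against 3 of 17 donors near a tRNA gene. In that run, 0 of 2 *rad27*Δ and 2 of 3 *rtt105*Δ donors near tRNA genes measured at least 100 bp, too few for a comparison. The other eligible donors of the same run had median lengths of 66.5 bp in *rad27*Δ and 235 bp in *rtt105*Δ, a difference that was not tested. The part of the run in the other differences was not tested.

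Most donors near tRNA genes lay outside reading frames. A reading frame was touched by 21 of 78 (26.9%) of them and by 548 of 705 (77.7%) of the other eligible donors. For scale, the shares of eligible positions at which a 77 bp segment would touch a reading frame were 42.1% within 1 kb of a tRNA gene and 79.6% elsewhere. Reading frames were touched by 5 of 20 donors in *rad27*Δ, 6 of 29 in *rtt105*Δ and 5 of 15 in *rtt105*Δ *rad27*Δ. The genes concerned include *STE6*, the exporter of a-factor, next to *TRT2* in *rtt105*Δ *rad27*Δ, and *PGM1*, a phosphoglucomutase, next to *YNCK0007W* in *rad27*Δ. Solo LTRs of Ty elements, which are frequent beside tRNA genes, are not in the annotation used. How many of the donors outside reading frames lie in them was therefore not tested.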

How the data were processed

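Reads had been quality filtered (BBDuk) and merged (PEAR) by the authors, who used BLASTN to detect insertions longer than 10 bp, collapsed redundant reads and annotated donors on R64. The deposited lists give donor coordinates in bp and a strand, as values of no other unit. Each line is 1 donor without a read number, so the depth of a library is unknown. Starts were made 1-based.

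Lists of 16 genotypes were used, and 4 deposited files were not. Donors within 20 kb of a chromosome end, 400 bp of the 93 Ty reading frames or 700 bp of the 3 mating-type cassettes, in chromosome XII 451000 to 469500 or on other sequences were left out (120, 282, 74, 111 and 66 donors). Side was taken from the midpoint. Two-sided Fisher's exact tests compared shares, adjusted over 14 tests after Benjamini-Hochberg, with exact 95% intervals for shares and Newcombe intervals for differences. PCR reads carry no molecular identifiers, and lists name no library, so intervals and p-values cover counting error only. Colony numbers are from the labels.

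Named tRNA genes were those nearest to at least 2 donors or touched by a donor (14 genes). The members and lists were chosen with earlier results of these data known. Other distances, margins and denominators, repeated donors counted once, complex donors added, an 80 bp boundary and each run left out were tried as alternatives. The assignment recovered 238 of 238 planted donors. All were planted beside, not over, a tRNA gene with no other tRNA gene close by. Overlaps with genes, the 1 kb limit and the exclusions were not tried in this way. Software was SciPy 1.17.1, pandas 2.3.3 and NumPy 2.4.6 under Python 3.11.15. Sequences are not shown, since no genome was used here.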

Additional observations from a re-analysis of the deposited data

Results flagged for a closer look

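Donors of complex insertions, which join several donors and were outside the comparisons above, also lay near tRNA genes. Of 110 eligible donors of complex insertions, 7 lay within 1 kb of a tRNA gene (6.36%, exact 95% interval 2.60% to 12.7%). They were singled out only because their share was above a floor of 2.73%, which is 3 counts in 110. This floor does not bear on nearness to tRNA genes. The 9.96% of single donors and the 4.79% of eligible positions both lie within the interval. They came from 7 insertions, 3 in *rtt105*Δ, 2 in *rtt105*Δ *rad27*Δ, 1 in *rad27*Δ and 1 in *mre11*-H125N. The *mre11*-H125N donor overlapped *YNCG0033W* by 39 bp, in a genotype with no eligible single donor. An *rtt105*Δ *rad27*Δ donor (chromosome VI, 210346 to 210413) lay 205 bp downstream of *SUP6*, among the single donors there and on the same strand as the gene. *rad27*Δ and *rtt105*Δ *rad27*Δ each held a donor of 30 bp at the same position, chromosome IV, 489443 to 489472, upstream of *YNCD0007C* by 572 bp. Whether these are independent captures cannot be told from the lists.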

How the results depend on the processing

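No paired analysis was possible because each list pools the libraries of its genotype and names none, and for the same reason no replicate could be left out. Over 17 alternatives and 14 comparisons, 178 of 207 values kept direction and side of the threshold, and the length difference between strains without and with Rad27 did so in every alternative run. The 178 include differences of exactly 0 between strains without and with Rad27, which have no direction. These were the same-strand share at 0.2 kb and the distance without *rad27*Δ run 1 or run 2. Against *rtt105*Δ alone the length difference was -56.7 points without *rtt105*Δ run 1, where 3 *rtt105*Δ donors remained (Fisher's exact test, adjusted p = 0.311). The share near tRNA genes passed the threshold at 2 kb for *rad27*Δ (-9.03 points) and *rtt105*Δ *rad27*Δ (-11.6 points) against *rtt105*Δ and for strains without against with Rad27 (-10.3 points). It also passed without the *SUP6* donors, an alternative chosen after seeing the data, for *rtt105*Δ *rad27*Δ against *rtt105*Δ (-7.72 points) and for all strains (-6.49 points), whereas without chromosome III, also added later, these differences shrank to -3.40 and -2.65 points. As no *SUP6* donor came from a strain with Rad27, leaving these donors out could only widen both differences. Per 100000 colonies, *rad27*Δ against *rtt105*Δ passed (-5.31, and -4.42 without the 37C libraries), and the direction turned for *rtt105*Δ *rad27*Δ against *rtt105*Δ (5.66, with or without them), against *rad27*Δ (11.0 and 10.1) and for strains without against with Rad27 (0.753 and 2.00). Other changes of direction, in none of which the difference passed, concerned the share of *rtt105*Δ *rad27*Δ against *rad27*Δ at 0.5 kb (0.750 points), the same-strand share at 0.5 kb (0.455 for *rad27*Δ against *rtt105*Δ and 2.31 for strains without against with Rad27), without *rad27*Δ run 1 (28.3 and 3.53), without *rtt105*Δ run 1 (11.7, the former) and without chromosome III (1.91, the former). They also concerned the upstream share at 0.2 kb (21.2 and 8.33) and without *rtt105*Δ run 1 (14.04, the former), the distance at 2 kb (2.27) and without *rtt105*Δ run 2 (0.214), and long donors near tRNA genes against elsewhere in *rtt105*Δ *rad27*Δ at 2 kb (-0.574), in *rad27*Δ without run 1 (-8.82) and in *rtt105*Δ without run 1 (-19.0). The causes were not tested. The distance test was not run at 0.5 and 0.2 kb, where its boundary leaves no donor on one side. For *rtt105*Δ *tel1*Δ and for *rtt105*Δ *rad1*Δ, GEO attaches the list to 1 of the 2 libraries, and the colonies of both were counted.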

Other observations

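Chromosome III, which carries the broken *MAT***a** locus, held 12 of the 78 donors near tRNA genes (15.4%) and 21 of the 705 other eligible donors (2.98%), while 10 of the 274 tRNA genes with eligible sequence (3.65%) lie on it. The 12 donors were nearest to 4 tRNA genes, with 6 at *SUF2*, 4 at *YNCC0001C* and 1 each at the glycine tRNA gene *SUF16* and at *YNCC0010C*. *rtt105*Δ gave 7 of them, which is 24.1% of its near-tRNA donors, against 3 of its 194 other eligible donors (1.55%). In strains without Rad27 the counts were 2 of 39 (5.13%) and 15 of 451 (3.33%). This chromosome was singled out after its values were seen, and these counts were not tested. Nearness to the break was not tested either, nor were solo LTRs, which the annotation used does not hold. Without it, the difference in the share near tRNA genes between strains without and with Rad27 was -2.65 percentage points instead of -5.35 (Fisher's exact test, adjusted p = 0.646 and 0.0881).

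Of 5 other genes transcribed by RNA polymerase III, 2 had an eligible donor within 1 kb. An *sgs1*Δ *exo1*Δ donor overlapped *RPR1*, which encodes the RNA of RNase P, and an *rtt105*Δ *rad27*Δ donor lay 675 bp from *SCR1*, which encodes the RNA of the signal recognition particle. *SNR6*, *SNR52* and *RNA170* had none.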
